A study of Cavia porcellus with 24 samples.

Results

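Ackr3, the atypical chemokine receptor also known as Cxcr7, was followed as 1 gene (ENSCPOG00000014142) of 18149 in RNA flushed from the carotid artery of Hartley guinea pigs. The gene was taken up because the study names it among the genes altered by high fat diet (HFD) in both arms of the F1 generation, so it was selected on its F1 diet differences, and its values in PC-C vs PC-H and PR-C vs PR-H are described without a test. The artery was rinsed of blood and its inner face lysed with TRIzol, and the RNA is labelled as endothelial. Messenger RNA of 24 animals was sequenced at 20 weeks of age, 3 animals in each of 8 groups. F1 animals were the offspring of F0 dams fed 100% (PC) or 70% (PR) of the ad libitum ration from before mating. From about mid gestation to the end of lactation the restricted ration was raised but stayed below that of the controls. The F1 animals later ate control chow (PC-C, PR-C) or HFD (PC-H, PR-H) for 12 weeks. F2 animals descended from F1 females of either arm that were themselves kept on control chow, and they too ate control chow (PC-C-C, PR-C-C) or HFD (PC-C-H, PR-C-H) for 12 weeks. The HFD was the control chow with added pork fat, cholesterol and fructose. By the study's methods diets were assigned so that littermates would not share a treatment, so littermates may lie in the groups compared, but the sample labels do not give litters and no pairing could be made. The study lists fewer F1 mothers of the PC arm than there are PC-C-C animals, so some animals of that group share a dam if those were all the mothers. PC-H animal 34 received a diet mix for part of the feeding period, as noted in the animal list of the study.

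Ackr3 is a membrane receptor of endothelial and other cells that binds the chemokines Cxcl12 and Cxcl11. It recruits arrestins in place of the G proteins through which classical chemokine receptors signal, and it carries its ligands into the cell for degradation. By removing Cxcl12 it limits the amount that reaches the signalling receptor Cxcr4, and it also takes up other ligands such as adrenomedullin (Adm). In the arterial wall Ackr3 is known as a modulator of endothelial growth, leukocyte recruitment and responses to injury.

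HFD animals had more Ackr3 mRNA than control diet animals in both F1 arms and in the PC arm of F2, and less in the PR arm of F2. The group mean ranged from 968 normalized counts in PC-C to 6062 in PC-C-H. A normalized count is the number of reads on the gene divided by the size factor of the library, a scale that corrects for sequencing depth but not for gene length. In the F2 generation the log2 diet difference of the PR arm minus that of the PC arm was -2.80 (standard error 0.53), and both arms were separated by diet, in opposite directions. In bulk RNA a change in the number of cells that express a gene and a change in RNA per cell cannot be told apart.

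Differences between groups are log2 values, the second group minus the first. Their standard errors come from 1 model in which all groups share 1 estimate of the spread, whatever their own spread. Libraries held 14061522 to 31148123 counted reads, and Ackr3 had 781 to 10432 reads per library, so that counting error was at most 3.58% of a value and was small beside the spread between animals. PC-C-H animal 51 does not appear in the animal list of the study, whose text states that a library of this group did not pass quality control. Its median correlation with the other libraries was 0.75 across genes, against 0.898 to 0.962 for the rest, and it was left out of the tests. Besides, 6 libraries stood apart in 302 genes that differed between PR-C and PR-C-C: the 3 of PR-C-C, PC-C-C animals 54 and 55 and PC-C-H animal 51. A score of these genes was 2.36 to 2.98 in the 6 libraries and -0.817 to -0.229 in the other 18. The genes were chosen on PR-C and PR-C-C, so the scores of these groups were set by that choice. Ackr3 is itself among the genes of the score. The sample labels give no batch for this division. Lists of markers of endothelial cells (10 genes), smooth muscle (6), fibroblasts (5), leukocytes (5) and erythrocytes (3) had 0 members that could be matched to an identifier. The labelled cell type was therefore not checked here. The study itself reports that tests of vascular markers showed its samples to be enriched in endothelial mRNA.

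**Figure D1:**
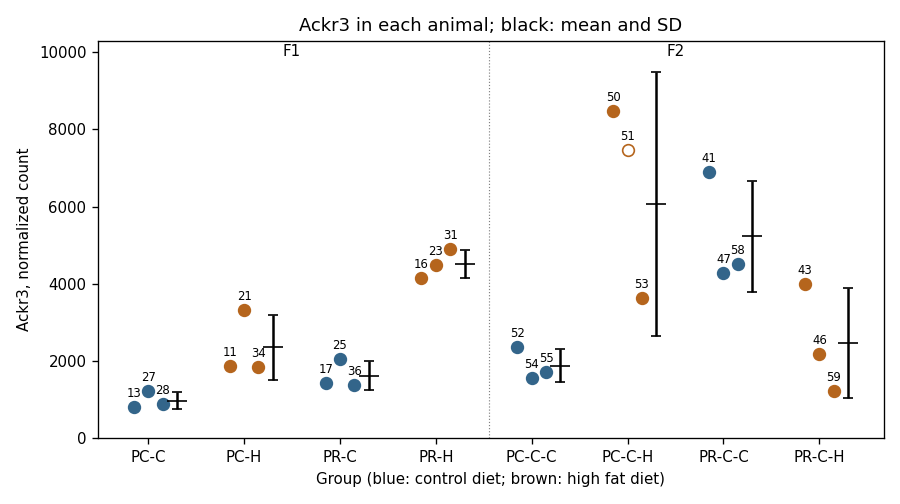
Ackr3 normalized count (vertical axis) of each of the 24 animals by group, with the animal's number above its point and the group mean and SD in black; the open circle is PC-C-H animal 51, which is not in the mean. HFD points lie above the control diet points of the same arm in PC-H, PR-H and PC-C-H, and below them in PR-C-H.

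In F1 control diet animals Ackr3 was lowest. The PC-C animals had 801, 1217 and 886 normalized counts (animals 13, 27 and 28), a mean of 968 ± 219.5 (SD, n = 3). The PR-C animals had 1435, 2051 and 1374 (animals 17, 25 and 36), a mean of 1620 ± 374 (SD, n = 3). All 3 PR-C values lay above all PC-C values.

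On HFD the PC-H animals had 1879, 3320.0 and 1854 normalized counts (animals 11, 21 and 34), a mean of 2351 ± 839 (SD, n = 3). The PR-H animals had 4163, 4484 and 4894 (animals 16, 23 and 31), a mean of 4514 ± 366 (SD, n = 3), and were the most uniform group, with an SD of 8.11% of the mean. Every F1 HFD animal lay above every control diet animal of its own arm. The log2 difference between HFD and control diet was 1.25 (standard error 0.35) in PC-C vs PC-H, a 2.37-fold difference, and 1.50 (standard error 0.35) in PR-C vs PR-H, a 2.83-fold difference. These 2 differences chose the gene. Separation in the direction of HFD was found for 6.81% of the 13224 genes tested in PC-C vs PC-H and for 4.76% in PR-C vs PR-H, and for 0.287% in both. The PC-H mean rested in part on animal 21: without it the log2 difference was 0.97, and without animal 34, which had the diet mix, it was 1.39. The difference between the F1 responses was 0.25 (95% interval -0.79 to 1.29), an interval that includes a larger response of either arm.

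In the PC arm of F2 the direction was that of F1. The PC-C-C animals had 2355, 1556 and 1725 normalized counts (animals 52, 54 and 55), a mean of 1879 ± 421 (SD, n = 3). PC-C-H animals 50 and 53 had 8483 and 3641, a mean of 6062 ± 3424 (SD, n = 2), and the excluded animal 51 had 7466. All PC-C-H values, that of animal 51 included, lay above all PC-C-C values, but animal 50 was far above animal 53. Separation of these groups, with 2 animals on 1 side, was common: 12.5% of the genes tested were separated with HFD higher. The log2 difference was 1.59 (standard error 0.39, 95% interval 0.76 to 2.41), a 3.00-fold difference, with an adjusted p of 0.291 (limma, Benjamini-Hochberg over genes), and 0.00756% of the genes passed the threshold there. DESeq2 on the recovered reads gave 1.69 and an adjusted p of 0.0132, a call shared by 0.287% of the genes it tested. The size depended on the 2 HFD animals, since the log2 difference was 0.98 without animal 50 and 2.20 without animal 53. Without PC-C-C animal 52 it was 1.76, with an adjusted p of 0.0406 (limma), in a fit that called 1.81% of the genes. Without PC-C-C animal 54 it was 1.46 (adjusted p = 0.89, limma), and without animal 55 it was 1.54 (adjusted p = 0.997, limma).

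In the PR arm of F2 the direction was the opposite. The PR-C-C animals had 6886, 4292 and 4502 normalized counts (animals 41, 47 and 58), a mean of 5226 ± 1441 (SD, n = 3). PR-C-H animals 43, 46 and 59 had 4007, 2170.4 and 1225, a mean of 2467 ± 1414 (SD, n = 3). All PR-C-H values lay below all PR-C-C values, with animal 43 close to the lowest PR-C-C animal, and 13.6% of the genes tested were separated in this direction. The log2 difference was -1.21 (standard error 0.35, 95% interval -1.95 to -0.48), which is 2.32-fold lower on HFD, with an adjusted p of 0.0716 (limma), and 2.61% of the genes passed the threshold in either direction. DESeq2 gave -1.08 with an adjusted p of 0.0485, where 4.96% of the genes it tested were called. Leaving out 1 animal moved the difference between -1.65 and -0.79. It was -1.65 without animal 43, with an adjusted p of 0.0305 (limma, 0.832% of the genes called). Without animal 59 it was -0.79, with an adjusted p of 0.304 (limma, 0.915% of the genes called).

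**Figure D2:**
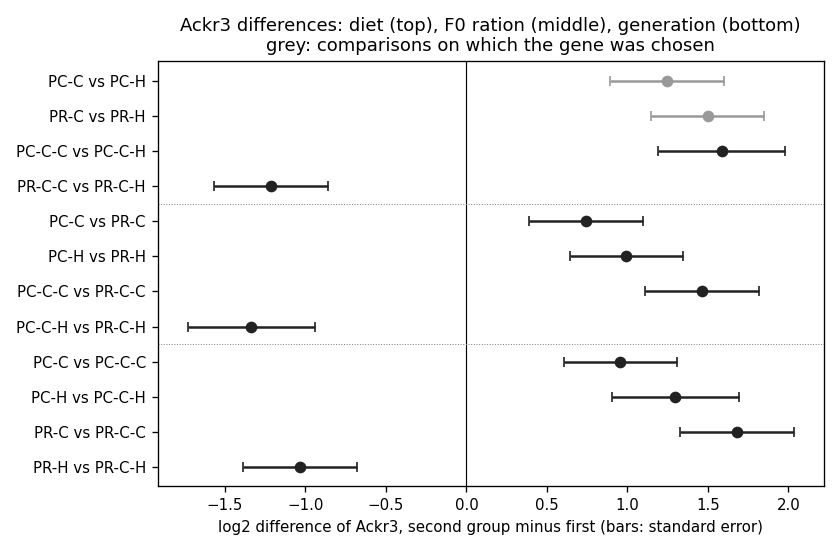
Log2 difference of Ackr3 (horizontal axis, second group minus first) with its standard error from limma in the 12 comparisons of 2 groups; grey marks the F1 diet comparisons that chose the gene. The 3 comparisons that contain PR-C-H have a negative difference, from -1.34 to -1.03, and the other 9 a positive one, from 0.74 to 1.68.

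The difference between the F2 diet responses was tested itself. It was -2.80 (PR minus PC, 95% interval -3.90 to -1.70) with an adjusted p of 0.152 over all genes (limma), and 0 genes passed the threshold in this test, with 349 at an unadjusted p under 0.05 and 0 called with edgeR. DESeq2 gave -2.77 with an adjusted p of 0.000617 and called 27 genes, 0.177% of those it tested. For Ackr3 alone, a two-sided exact permutation test of diet within each arm over the 11 F2 animals gave p = 0.005, the smallest value its 200 arrangements allow. This test was chosen after the values were seen. Once both arms are separated in opposite directions, the observed arrangement is the most extreme in its direction. The test is therefore no support beyond the separation itself. With 1 animal left out the difference ranged from -3.41 to -2.19 and the exact permutation p was at most 0.02. The adjusted p passed the threshold without PR-C-H animal 43 (0.0244, limma, 0.00756% of the genes called). It was 0.312 without PR-C-H animal 59 and 0.356 without PR-C-C animal 41 (limma). Without PC-C-H animal 50 or 53, which leaves 1 animal in that group, the difference was -2.19 or -3.41. With animal 51 included the difference was -2.94. The diet difference over both F2 arms together was 0.187 on the log2 scale (exact permutation p = 0.775, adjusted p = 0.775 over 3 tests).
Among the 13224 genes tested, 0.371% were separated with HFD higher in the PC arm and lower in the PR arm of F2, and 0.31% the other way round. Ackr3 was separated with HFD higher in 3 arms and lower in the PR arm of F2. This pattern over all 4 arms was found for 1 gene, Ackr3 itself, 0.00756% of those tested. Another 9 genes (0.0681%) were separated with HFD higher in all 4 arms. The pattern was taken from Ackr3 itself and includes the F1 separations that chose the gene. That no other gene had it is therefore a description and not a test.

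PR-C-C had the highest mean of the 4 control diet groups. It was above PC-C-C by 1.46 on the log2 scale (standard error 0.35, 95% interval 0.73 to 2.20), a 2.76-fold difference, with every PR-C-C animal above every PC-C-C animal, as in 6.11% of the genes tested. The adjusted p was 0.815 (limma), and 0 genes were called there by limma and edgeR, with 615 at an unadjusted p under 0.05. DESeq2 gave an adjusted p of 0.0307 and called 0.144% of the genes it tested. On HFD the order of the arms was the other way round, with a log2 difference of -1.34 for PR-C-H against PC-C-H (standard error 0.39). The adjusted p was 1 (limma) and 0.435 (DESeq2), and the groups overlapped, since PR-C-H animal 43 exceeded PC-C-H animal 53. The difference was -0.73 without PC-C-H animal 50 and -1.95 without animal 53.
In F1 the restricted arm was higher on both diets. The values of these F1 animals also chose the gene, so the p-values of the F1 ration comparisons are not independent evidence. PR-C exceeded PC-C by 0.74 in log2 terms (standard error 0.35, 95% interval 0.0064 to 1.48, adjusted p = 1, limma), without overlap, as in 3.99% of the genes tested. PR-H exceeded PC-H by 0.99 (standard error 0.35, 95% interval 0.26 to 1.73, adjusted p = 0.251, limma), without overlap, as in 7.29% of the genes. Without PC-H animal 21 the latter was 1.27 with an adjusted p of 0.038 (limma), in a fit that called 12.4% of the genes, against 0 with all animals. Without PC-H animal 34 it was 0.85 with an adjusted p of 0.598 (limma). Over the 4 strata of generation and diet the ration difference (PR minus PC) was 0.466. The exact permutation p was 0.174, with an adjusted p of 0.26 over 3 tests. PR was higher in 3 strata and lower in F2 animals on HFD. The F1 animals that chose the gene are part of this test too. The ration was given to F0 dams and not to the animals sequenced. The intervals and p-values of the ration, diet and generation comparisons treat each animal as independent, although animals may share a dam or granddam.

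**Figure D3:**
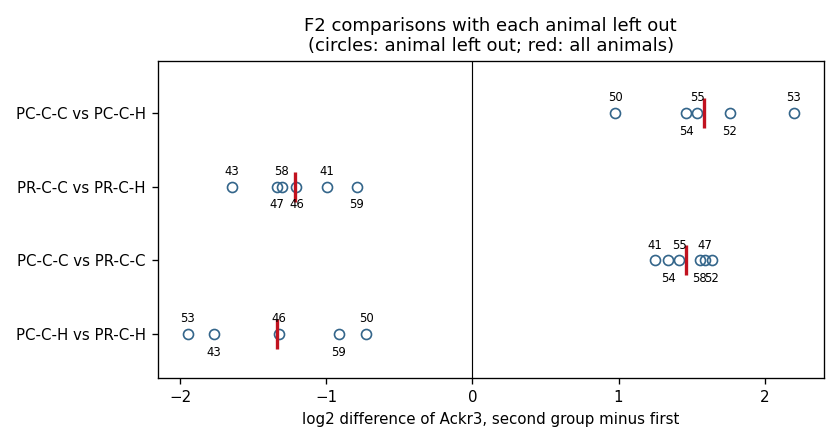
Log2 difference of Ackr3 (horizontal axis) in the 4 comparisons of F2 groups, with each animal of the 2 groups left out in turn (circles, numbered by the animal left out) and with all animals (red line). All 4 differences keep their sign. The widest ranges, alike in width, are those of PC-C-C vs PC-C-H, from 0.98 to 2.20, and PC-C-H vs PR-C-H, from -1.95 to -0.73. The narrowest, from 1.25 to 1.64, is that of PC-C-C vs PR-C-C.

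Between generations Ackr3 was higher in F2 except in the PR arm on HFD. The F1 animals in these comparisons also chose the gene, so the p-values are not independent evidence. PR-C-C exceeded PR-C by 1.68 on the log2 scale (standard error 0.35, 95% interval 0.94 to 2.41), a 3.20-fold difference with an adjusted p of 0.0149 (limma). This was the only one of the 12 comparisons of 2 groups in which limma called Ackr3, among 2.28% of the genes tested (0.945% higher in PR-C-C), and DESeq2 gave an adjusted p of 0.000353, with 4.46% of its genes called. The call was lost without PR-C animal 17 (adjusted p = 0.057, limma) or 36 (0.0732), without PR-C-C animal 41 (0.0961), and when animal 51 entered the model (0.058). The groups were separated, as in 9.75% of the genes. PC-C-C exceeded PC-C by 0.96 (standard error 0.35, adjusted p = 0.424, limma) and PC-C-H exceeded PC-H by 1.30 (standard error 0.39, adjusted p = 0.151, limma). In both the groups were separated, as in 6.25% and 13.7% of the genes. DESeq2 gave an adjusted p of 0.0304 for PC-H vs PC-C-H, where it called 4.66% of its genes, and 0.29 for PC-C vs PC-C-C. In contrast, PR-C-H against PR-H had a log2 difference of -1.03 (standard error 0.35, adjusted p = 1 with limma and with DESeq2), without overlap, as in 4.2% of the genes. It was -0.61 without PR-C-H animal 59 (95% interval -1.33 to 0.11) and -1.46 without animal 43. Over the 4 strata of arm and diet the F2 level was higher by 0.725 (exact permutation p = 0.0343, adjusted p = 0.103 over 3 tests).
The log2 diet difference in F2 minus that in F1 was -2.71 in the PR arm (standard error 0.50) and 0.34 in the PC arm (standard error 0.53). No p-value is given for these, since 1 of the 2 responses in each chose the gene.

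Ordered by mean log2 level, the groups ran from PC-C through PR-C, PC-C-C, PR-C-H, PC-H, PR-H and PR-C-C to PC-C-H. Neighbours were separated without overlap at 2 of the 7 steps, between PC-C and PR-C and between PC-H and PR-H. Across the other 5 steps the ranges of the neighbours overlapped. The spread within groups was wide for a gene of this level: the SD within groups was 0.49 on the log2 scale, larger than for 97.8% of the 1747 other genes within 0.5 of its mean log2 count, whose median was 0.21. It was largest in PC-C-H (0.86) and PR-C-H (0.85) and smallest in PR-H (0.12).

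The division of the libraries cut across the PC arm of F2. PC-C-C animals 54 and 55, on the same side as PR-C-C, had 1556 and 1725 normalized counts, below the 2355 of PC-C-C animal 52 on the other side. Against animals 54 and 55 alone PR-C-C was higher by 1.64 on the log2 scale, against 1.46 with all 3. On the side of PR-C-C the only PC-C-H value was the 7466 of animal 51, which was left out of the tests, against 1556 and 1725. On the other side PC-C-H had 8483 and 3641, against 2355 in animal 52, the only PC-C-C animal there. These values are a description and not a test. In the PR arm all control diet libraries of F2 lay on 1 side and all HFD libraries on the other, so that diet and division cannot be told apart there. A term for the division, which for this arm rests on the 3 PC-C-C animals, gave -1.74 for PR-C-C vs PR-C-H (adjusted p = 0.951, limma) and 2.20 for PR-C vs PR-C-C (adjusted p = 1, limma). Depth also moved with the groups: the median library of PR-C-C held 18630101 reads and that of PR-C-H 26339864. The PR-C-C animal with the fewest reads, animal 41, had the highest Ackr3 of its group. In the PC arm, where Ackr3 was higher on HFD, the median was 20540311 in PC-C-C and 28052073 in PC-C-H. Depth overlapped with the division too. Animals 41, 47, 51, 54 and 55 held 14061522 to 21477925 reads and animal 58 held 24580498, against at least 22163509 on the other side. The part of depth in the result was not tested beyond scaling. Scaled by the library total in place of the size factor (RPM), PR-C-C had 215 ± 53.2 and PR-C-H 103 ± 58.3 (SD, n = 3 each).

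**Figure D4:**
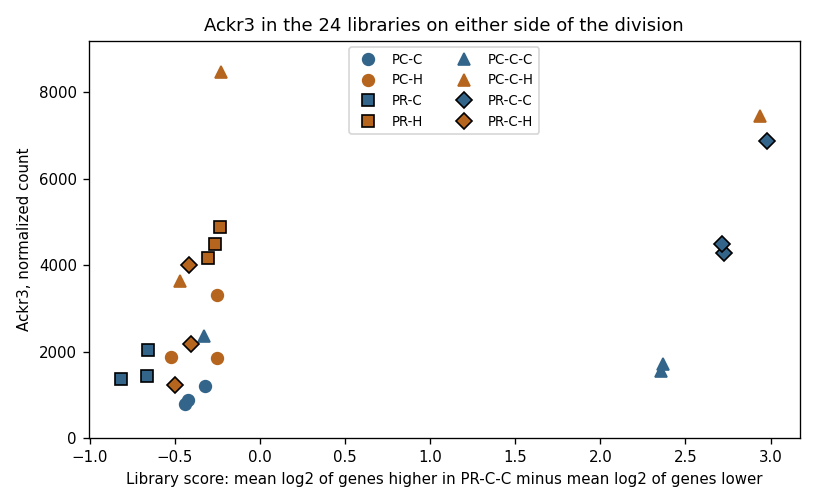
Ackr3 normalized count (vertical axis) against the score of the genes that divide the libraries (horizontal axis, log2 scale), for all 24 animals; symbols give the group, brown is HFD, blue control diet, and a black edge marks the PR arm. Libraries on the right side span 1556 to 7466 normalized counts and those on the left 801 to 8483. Ackr3 is itself among the genes of the score.

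The 4 lipid genes that the study names together with Ackr3 for the F1 arms did not share its direction in the PR arm of F2. Abcg1 is a transporter that moves cholesterol out of the cell, Srebf1 a transcription factor of lipid synthesis, Scd1 an enzyme that desaturates fatty acids, and Mylip a ubiquitin ligase that marks the low density lipoprotein receptor for degradation. All 4 rose from PR-C-C to PR-C-H, where 1.58% of the genes tested rose, and Ackr3 was lower. The log2 difference was 3.63 for Abcg1 (standard error 0.56, adjusted p = 0.00218, limma), 3.60 for Srebf1 (standard error 0.54, adjusted p = 0.00172, limma), 1.88 for Scd1 (standard error 0.41, adjusted p = 0.018, limma) and 1.88 for Mylip (standard error 0.22, adjusted p = 0.000251, limma).
In the PC arm of F2, where Ackr3 had 1.59, the log2 difference was 3.36 for Abcg1 (adjusted p = 0.0836, limma), 2.57 for Srebf1 (adjusted p = 0.258, limma), 1.18 for Scd1 (adjusted p = 0.539, limma) and 1.65 for Mylip (adjusted p = 0.0188, limma). All 5 genes were separated with HFD higher in this arm, as were 12.5% of all genes tested. The diet response of the PR arm minus that of the PC arm in F2 was 0.22 for Mylip (95% interval -0.46 to 0.91), 0.27 for Abcg1 (-1.48 to 2.03), 0.69 for Scd1 (-0.60 to 1.99) and 1.03 for Srebf1 (-0.67 to 2.73), beside -2.80 for Ackr3. That Ackr3 differs from these genes was not tested itself, and all 5 were chosen for their F1 response.
Between the control diet groups of F2, Abcg1 averaged 247 ± 104 normalized counts in PC-C-C and 227 ± 44.7 in PR-C-C, and Mylip 456 ± 41.8 and 457 ± 101 (SD, n = 3 each), with overlap in both, where Ackr3 was separated and 2.76-fold higher in PR-C-C.

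**Figure D5:**
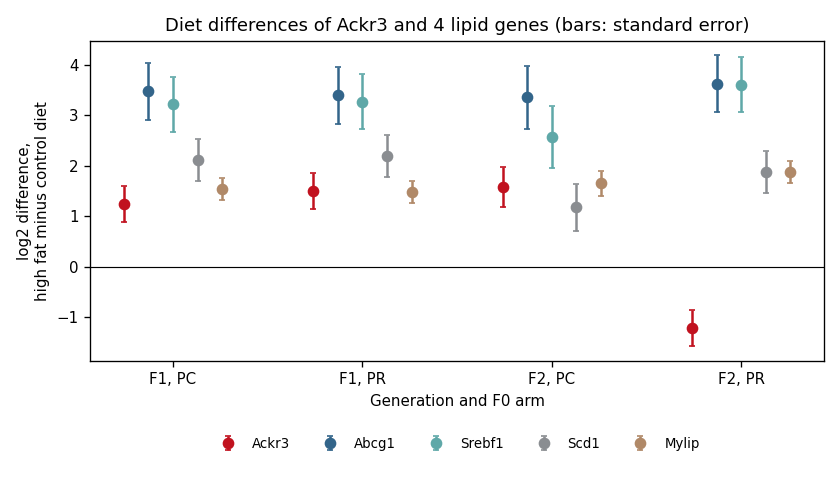
Log2 difference between HFD and control diet (vertical axis) with its standard error from limma for Ackr3, Abcg1, Srebf1, Scd1 and Mylip in the 4 arms of generation and F0 ration (horizontal axis). All 5 genes lie above 0 in the first 3 arms, and in the PR arm of F2 Ackr3 lies at -1.21 and the others between 1.88 and 3.63.

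Of the 23 genes listed for the Ackr3 pathway, only Ackr3 and Arrdc3 could be matched to an identifier. The ligands (Cxcl12, Cxcl11 and Adm among them), the receptor Cxcr4, the arrestins and the other atypical receptors are not reported here. Arrdc3 is an arrestin domain protein that takes part in the trafficking of membrane receptors. It passed the test in 0 of the 12 comparisons of 2 groups with limma, and DESeq2 values for it are not reported here. Its name was available because it stands in the study's own list for PC-C vs PC-H. In that comparison Arrdc3 had 45445 ± 11737 normalized counts in PC-C and 27886 ± 3094 in PC-H (SD, n = 3 each), without overlap. In F2 animals of the PR arm, where Ackr3 was 2.32-fold lower on HFD, Arrdc3 had 36183 ± 5514 on control diet and 35784 ± 746 on HFD (SD, n = 3 each), a log2 difference of -0.0042 (standard error 0.19).

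The likeness of other genes to Ackr3 was measured by Pearson's r of log2 normalized counts over 23 animals, as a description of libraries that share the same groups. The highest r among the 13223 other genes was 0.839, and the median was -0.0135. The gene with the highest r, ENSCPOG00000004943, averaged 27.3 normalized counts in PC-C and 90.1 in PC-H, 66.4 in PC-C-C and 289 in PC-C-H. In the PR arm of F2 it averaged 277 on control diet and 36 on HFD, so that its mean was lower on HFD in the same F2 arm as that of Ackr3. The next was ENSCPOG00000030795 (r = 0.835), with 3969 on control diet and 2949 on HFD in that arm.
Among 138 genes with a name, all from the list of the study for PC-C vs PC-H, the highest were Rras2, a Ras family GTPase (r = 0.782), Dync1Li1, a subunit of the dynein motor (r = 0.76), Meox2, a homeobox transcription factor of vascular cells (r = 0.733), and the chaperone Hspa8 (r = 0.71). In that arm Rras2 averaged 752 normalized counts on control diet and 632 on HFD, and Hspa8 29536 and 30495. Of these 4 genes, Rras2, Dync1Li1 and Meox2 had a lower mean in PR-C-H than in PR-C-C, and Hspa8 a higher one.
After the group means were subtracted, which leaves only differences between animals of the same group, the named gene with the highest r was Wee1, a kinase that restrains entry into mitosis (r = 0.687, place 28 among all genes). It was followed by the transcription factor Nrf1 (r = 0.574), the chaperonin subunit Cct2 (r = 0.519) and the actin-binding calponin Cnn3 (r = 0.516). Without a name, ENSCPOG00000010183 (r = 0.866) and ENSCPOG00000040393 (r = 0.82) were highest.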

How the data were processed

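Per the labels and the paper, the authors used FastQC for quality, Trimmomatic for trimming, STAR for alignment and DESeq2 for analysis; versions, genome build, annotation and the counting program are not given in the sources used here, so how reads shared by similar genes were assigned is not known. The deposited signal values are reads per gene divided by 1 size factor per library: 100% of them were whole reads within 0.001 reads. The table holds 18149 genes by identifier. Names came from the readable part of the study's list for PC-C vs PC-H, and columns with that list's fold changes and p-values were not used. Positions and sequences were not analysed here.

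limma 3.58.1 (R 4.3.3) was fitted with a trend to log2(normalized count + 1) in 13224 genes whose mean reached 10, with 8 groups in 1 model of 23 libraries and Benjamini-Hochberg adjustment over genes (threshold 0.05). The design named edgeR for counts and limma for normalized values, which the table holds. DESeq2 1.42.0 and edgeR 4.0.16 were run on the recovered reads. Single values were tested by exact permutation within strata. The methods were tested on simulated data. The gene, the lists and the alternatives were chosen with earlier results of these data known. Named genes were Ackr3, matched list members, and the 4 named and 2 unnamed genes with the highest correlation. Alternatives were other tools, scalings, pseudocounts and filters, only the groups compared, animal 51, sex, array weights, a term for the divided libraries and each animal left out. Intervals cover the spread between animals as 1 estimate over all groups, not the spread of the 2 groups compared. The SD within groups ran from 0.12 in PR-H to 0.86 in PC-C-H on the log2 scale. Intervals for comparisons with PC-C-H or PR-C-H may therefore be too narrow. The counting error covers counting only, since PCR copies were not marked by molecular identifiers. Figures were drawn with matplotlib 3.10.9.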

Additional observations from a re-analysis of the deposited data

Results flagged for a closer look

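The diet difference of Ackr3 in the F2 generation differed between the arms by -2.80 on the log2 scale (PR minus PC). It is listed because a two-sided exact permutation test of the difference gave p = 0.005, but that test was chosen after the values were seen. With both arms separated in opposite directions, the observed arrangement is the most extreme in its direction, so the test is no support beyond that separation. The adjusted p over all genes was 0.152 (limma). All 3 PR-C-H animals lay below all 3 PR-C-C animals, and both PC-C-H animals above all 3 PC-C-C animals. The 3 PR-C-C libraries were also among the 6 that stood apart and the 3 PR-C-H libraries were not. Diet and this division thus cannot be told apart in the PR arm. The division was drawn from genes that differed between PR-C and PR-C-C, Ackr3 among them. The diet difference within the PR arm differed between the generations by -2.71 (F2 minus F1), with F1 animals on HFD above, and F2 animals on HFD below, the control diet animals of their own generation. The difference was not tested and is a description only, because the F1 separation is what selected the gene.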

How the results depend on the processing

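No paired analysis was possible because each animal has its own number and no number is shared between groups. Of 216 values of Ackr3 under another tool, scaling, pseudocount, filter, sample set or model, 205 kept their direction and their side of the threshold or moved by less than the SD within groups, and the value changed sign in 1 of them, the PC difference between generations with the term for the divided libraries (-0.0087). Scaling moved the median of all genes by at most 0.0622. With DESeq2 the log2 difference passed the threshold for PC-C-C vs PC-C-H (1.69), PR-C-C vs PR-C-H (-1.08), PC-C-C vs PR-C-C (1.48), PC-H vs PC-C-H (1.37) and the difference of the F2 diet responses (-2.77). With array weights it passed for PC-C-C vs PC-C-H (1.73), PR-C-C vs PR-C-H (-1.02) and the F2 difference (-2.75). PR-C vs PR-C-C lost its call with animal 51 included (1.68) and with the term for the divided libraries (2.20), and with that term the PR difference between generations moved to -3.23. The cause was not tested.

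With each animal left out in turn, Ackr3 ranged from 0.98 to 2.20 for PC-C-C vs PC-C-H, -1.65 to -0.79 for PR-C-C vs PR-C-H, 1.46 to 1.86 in PR-C vs PR-C-C, 0.69 to 1.91 in PC-H vs PC-C-H (adjusted p = 0.0203 without PC-H animal 21, limma, with 14.3% of the genes called), 0.85 to 1.27 in PC-H vs PR-H, -1.95 to -0.73 for PC-C-H vs PR-C-H and -1.46 to -0.61 in PR-H vs PR-C-H. The F2 difference ranged from -3.41 to -2.19 and the PC difference between generations from -0.27 to 0.95. Generation over all strata ranged from 0.572 to 0.878. Its adjusted p (exact permutation test) ran from 0.0226 without animal 59 to 0.279 without animal 43, against 0.103 with all animals of the test. The F1 animals that chose the gene are part of that test. The diet difference over both F2 arms ranged from -0.118 to 0.492, and it changed sign without animal 50 (-0.118) or 43 (-0.0293). PC-C-H holds 1 animal when another is left out, and it is then assumed to vary like the other groups.

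DESeq2 called more genes than limma: 193 against 16 in PC-C vs PC-H, 16 against 3 in PR-C vs PR-H, 49 against 1 for PC-C-C vs PC-C-H, 689 against 345 for PR-C-C vs PR-C-H, 651 against 302 in PR-C vs PR-C-C and 157 against 10 for the PR difference between generations. edgeR called 6 in PC-C vs PC-H, 1 in PR-C vs PR-H and 1 in each of PC-C vs PC-C-C and PC-H vs PC-C-H. limma called 0 in the remaining comparisons, where DESeq2 called 0 to 599. Of the 10 genes most like Ackr3, 5 were kept with Spearman's rho and 4 with animal 51 included.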
